A study of Mus musculus with 15 samples.

Results

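The TGF-beta ligands, receptors and latency proteins are described here by 10 genes: Tgfb1, Tgfb2, Tgfb3, Tgfbr1, Tgfbr2, Inhba, Ltbp1, Ltbp2, Smad7 and Skil. They are 10 of the 48440 genes in the deposited count table, and each is found there once. They were chosen by name, by a rule that uses no measured value, although earlier results of these data were known. All 10 are among the 18167 genes that passed the filter on low counts. The set covers ligands, their signalling receptors, proteins that store the latent ligand, and feedback inhibitors of the pathway.

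Transforming growth factor beta (TGF-beta) is made as a precursor that stays wrapped in its own propeptide after cleavage, so the secreted ligand is latent. Latent TGF-beta binding proteins couple this complex to the extracellular matrix, and integrins or other activators set the ligand free. Free ligand brings the type II receptor and the type I receptor together, the type I receptor phosphorylates SMAD transcription factors, and these enter the nucleus with their shared partner. In lung fibroblasts the pathway is best known for driving matrix synthesis and the contractile myofibroblast state. Activin A, a dimer of the Inhba product, uses other receptors and the same SMADs.

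RNA was sequenced from primary lung fibroblasts of C57BL/6 mice, in 5 groups of 3 libraries each. The groups were Atm+/+ and Atm-/- cells at passage 2 (p2), both genotypes at passage 8 (p8), and Atm+/+ cells labelled passage 2 that received 10 Gy of X-rays and were harvested after 10 days. All cultures shared the medium with 15% serum and an atmosphere of 5% CO2 and 3% oxygen, and there were no irradiated Atm-/- cells. No unirradiated group was labelled as kept for those 10 days, so dose and time cannot be told apart. Per the design text 3 strains of fibroblasts were established per genotype, so replicate error here holds strain differences too, and the labels do not say how many mice stand behind a strain. They also do not say whether a replicate number marks the same strain in several groups. A fit with terms for the numbers (a replicate block) was therefore run as an alternative. Irradiated cells served in the study as a control in premature senescence, the arrest that follows DNA damage.

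Library totals ran from 13.65 M to 39.21 M counts, and 2 libraries stood apart. At equal depth Atm+/+ p2 replicate 3 had reads for 17226 genes and Atm-/- p8 replicate 3 for 15037, against 20101 or more in each of the other 13. Atm+/+ p2 replicate 3 was the lowest of its group for 7 of the 10 genes, and Atm-/- p8 replicate 3 for 4. Results below are from all 15 libraries. A fit of the other 13, chosen after the data were seen, is quoted for each comparison's count and for the genes whose call or size it moves. Atm itself was between 0.873 and 3.1 CPM in all libraries and did not differ between genotypes by the test (log2 -0.17 at p2, edgeR adjusted p = 0.883). Which part of Atm the knockout removes is not given in the labels, so its counts do not check them.

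Fibroblast identity was checked with 8 defining markers (Col1a1, Col1a2, Col3a1, Pdgfra, Thy1, Dcn, Lum, Vim), of which none was under 1 CPM in any group. Their summed level was 22300 to 34700 CPM in Atm+/+ and 24100 to 30400 in Atm-/- cells at p2. At p8 it was 29200 to 35600 CPM in Atm+/+ and 8910 to 12800 CPM in Atm-/- cells, and 22500 to 26000 CPM after irradiation. Early cultures also held RNA of other lung cells. The summed level of 10 macrophage markers was 1940 to 3050 CPM in Atm+/+ p2, 872 to 1390 in Atm-/- p2 and 1190 to 2090 in the irradiated cells, but 63.9 to 96.8 in Atm+/+ and 35.2 to 57.7 in Atm-/- cells at p8. The 8 endothelial markers summed to 374 to 786, 293 to 492 and 77.9 to 242 CPM in the first 3 of those groups, and to 3.35 to 4.55 and 8.58 to 35.3 CPM at p8. Smooth muscle and pericyte markers, which fibroblasts share in part, summed to 3640 to 4430 CPM in Atm+/+ p2 and 6260 to 7870 CPM in Atm-/- p2. At p8 they summed to 9430 to 9900 CPM in Atm+/+ and 4760 to 6160 CPM in Atm-/- cells, and after irradiation to 12800 to 14800 CPM. The most mesothelial and epithelial marker RNA was in Atm-/- p8 cells: mesothelial markers summed to 11.4 to 55.8 CPM there and to 4.28 CPM or less elsewhere, and epithelial markers to 17.6 to 51.5 CPM there and 7.82 to 9.57 CPM in Atm+/+ p8. In bulk RNA, fewer cells of a type and less RNA per cell cannot be told apart.

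Promoter sequence is shown for the ligands and latency proteins in the RefSeq table, since the pathway acts on its targets through SMAD binding sites. RefSeq (GRCm38.p6) had 9 start windows for 7 of the 10 genes, each 250 bases before a start, and none was used for Tgfb3, Smad7 or Skil. The SMAD box, searched as CAGACA on both strands, was in 3 of these 9 windows and in 17.1% of all 32841 windows. An AP-1 site, searched as TGANTCA on both strands, was in 0 of the 9 and in 6.75% of all windows. The lines below read 5′ to 3′ along the gene's own strand, with capitals marking a SMAD box (TGTCTG is CAGACA on the other strand).
Tgfb1, chr7:25686752-25687001, plus strand, no SMAD box: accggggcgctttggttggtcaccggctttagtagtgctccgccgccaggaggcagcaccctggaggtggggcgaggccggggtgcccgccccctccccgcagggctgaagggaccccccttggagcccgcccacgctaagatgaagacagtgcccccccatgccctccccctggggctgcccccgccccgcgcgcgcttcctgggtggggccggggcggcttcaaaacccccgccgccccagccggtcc
Tgfb2, chr1:186705990-186706239, minus strand, 1 SMAD box: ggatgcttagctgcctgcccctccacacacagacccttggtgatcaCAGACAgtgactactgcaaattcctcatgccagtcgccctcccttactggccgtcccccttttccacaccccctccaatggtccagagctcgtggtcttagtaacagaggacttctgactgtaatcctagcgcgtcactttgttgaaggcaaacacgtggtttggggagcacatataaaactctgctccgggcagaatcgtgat
Inhba, chr13:16011601-16011850, plus strand, no SMAD box: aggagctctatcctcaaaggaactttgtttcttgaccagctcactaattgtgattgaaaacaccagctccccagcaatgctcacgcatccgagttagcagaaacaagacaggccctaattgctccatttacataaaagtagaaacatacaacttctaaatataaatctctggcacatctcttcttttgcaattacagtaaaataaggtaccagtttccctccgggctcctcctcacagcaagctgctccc
Ltbp1, start inside the gene, chr17:75178531-75178780, plus strand, 2 SMAD boxes: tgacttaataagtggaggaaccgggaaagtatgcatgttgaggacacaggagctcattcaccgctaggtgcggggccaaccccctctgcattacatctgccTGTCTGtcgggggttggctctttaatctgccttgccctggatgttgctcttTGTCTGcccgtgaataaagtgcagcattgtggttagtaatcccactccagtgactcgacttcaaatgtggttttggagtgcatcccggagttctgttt
Ltbp2, chr12:84876559-84876741, minus strand, no SMAD box: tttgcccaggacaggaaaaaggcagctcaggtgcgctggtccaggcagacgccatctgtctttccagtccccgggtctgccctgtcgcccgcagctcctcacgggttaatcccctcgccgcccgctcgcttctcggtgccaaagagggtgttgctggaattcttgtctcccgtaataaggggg
In the Ltbp1 window the boxes lay 149 and 98 bases before the start, and in the Tgfb2 window the box lay 204 bases before it. The other Ltbp1 window, at the start of the full-length gene, held none. For Ltbp2 the 183 bases outside annotated transcripts are printed. A match describes letters only, and no binding was measured.

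The genes lie apart in the genome, apart from Tgfb3 and Ltbp2, which share chromosome 12. Tgfb3 (ENSMUSG00000021253) spans chr12:86056745-86079041 and Ltbp2 (ENSMUSG00000002020) chr12:84783212-84876532, both on the minus strand (GENCODE vM21, GRCm38). Tgfb1 (ENSMUSG00000002603) spans chr7:25687002-25705077 on the plus strand. Inhba (ENSMUSG00000041324) spans chr13:16011851-16031621 and Ltbp1 (ENSMUSG00000001870) chr17:75005568-75392512, both on the plus strand. Exons of Tgfb2, Tgfb3 and Ltbp2 overlap genes on the opposite strand (Gm29491 for Tgfb2, Gm37804 and Gm48008 for Tgfb3, D030025P21Rik for Ltbp2). Whether counting used strand is not given in the sources used here, and reads of these pairs cannot be told apart.

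Compared per length, as deposited TPM (transcript abundance scaled by gene length and to the same sum in each library), the latency proteins and Tgfb3 were the most abundant members. In unirradiated Atm+/+ p2 cells Tgfb3 was at 78.0 ± 17.2, Ltbp2 at 78.0 ± 4.18 and Ltbp1 at 64.9 ± 4.6 TPM (SD, n = 3), 3 means closer than the spread of Tgfb3. Tgfb1 followed at 45.2 ± 11.3 and Tgfbr2 at 36.7 ± 29.2 TPM, which also overlap. Smad7 (6.79 ± 4.12), Tgfbr1 (4.22 ± 2.48), Tgfb2 (3.16 ± 2.57) and Skil (2.99 ± 1.11) lay far lower and within each other's spread. Inhba was the lowest at 0.491 ± 0.309 TPM. The irradiated cells had the highest mean TPM for 9 of the 10 genes, the exception being Ltbp1 with 119.5 ± 8.90 TPM in Atm+/+ p8 against 115.4 ± 5.57. TPM ran higher in irradiated libraries for genes at large (median log2 difference of all genes 0.321 from Atm+/+ p2), and on the TMM-normalised scale below Tgfb1 and Tgfb2 were not highest after irradiation either.

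Tgfb3 was the largest of the 3 ligand isoforms in every library. Its share of their summed TPM was 60.9, 60.8 and 64.4% in Atm+/+ p2 (always listed by replicate number, 1 to 3) and 72.1, 68.4 and 68.2% in Atm-/- p2. It was 81.2, 82.8 and 82.9% in Atm+/+ p8, 68.5, 76.7 and 72.3% in Atm-/- p8, and 84.4, 83.8 and 82.3% after irradiation. The Atm+/+ p8 and irradiated shares all lay above every value of the other groups. Tgfb2 never exceeded 3.65% of the sum. Within a library this ratio does not depend on scaling, and Tgfb3 exceeded Tgfb1 by 1.66- to 1.85-fold in Atm+/+ p2 and by 4.65- to 5.31-fold in Atm+/+ p8. After irradiation the ratio was 5.09 to 5.99. The summed TPM of the 3 ligands was 98.4 to 159.7 in Atm+/+ p2 and 343.1 to 422.8 after irradiation.

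**Figure D1:**
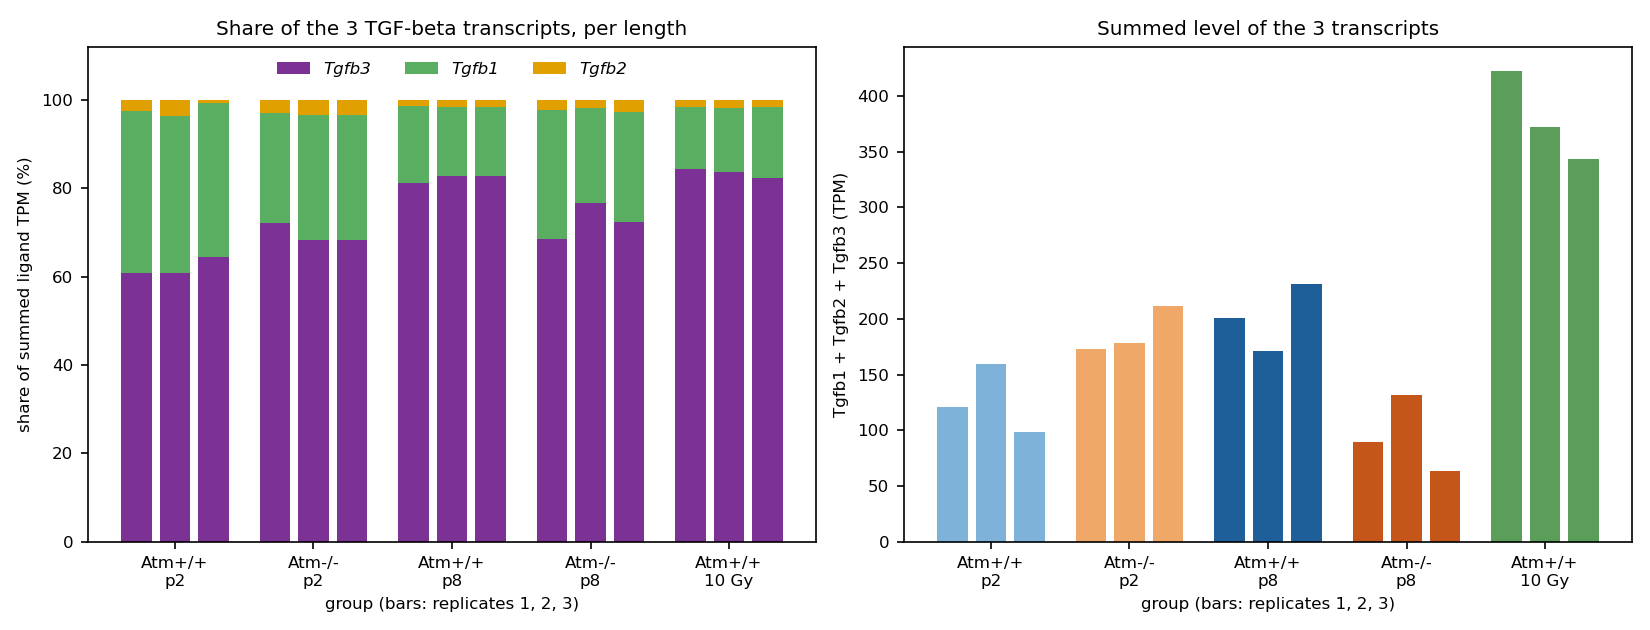
Left, percent of the summed TPM of Tgfb1, Tgfb2 and Tgfb3 in each of the 15 libraries, by group. Right, the summed TPM. Each bar is 1 library. Tgfb3 makes 81.2 to 84.4% of the sum in Atm+/+ p8 and irradiated cells and 60.8 to 76.7% elsewhere, and the irradiated sums stand above all others.

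Levels of single genes are given below in TMM-normalised CPM (counts scaled to library size), which serve to compare libraries and not genes. Fold changes are log2 values, each with a standard error (SE), and a change was called where the edgeR quasi-likelihood p, adjusted by Benjamini and Hochberg over all 18167 genes, was under 0.05. Passage in Atm+/+ cells and irradiation were both measured against the same Atm+/+ p2 libraries, and comparisons that share a group are not independent of each other.

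**Figure D2:**
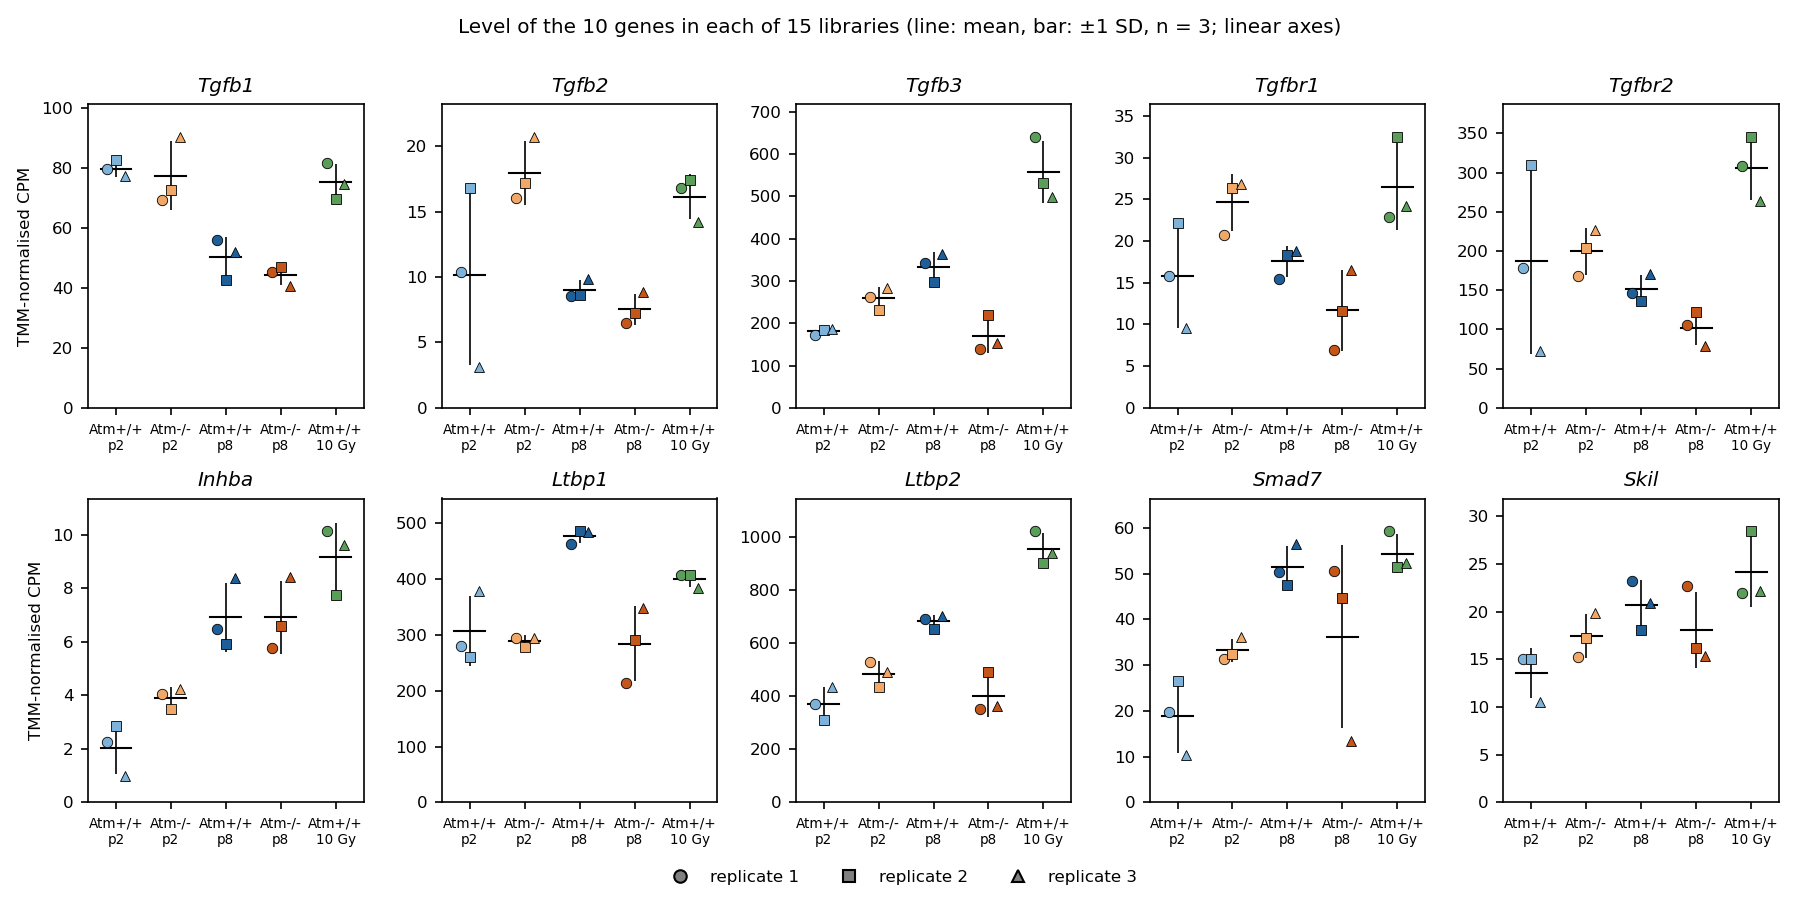
TMM-normalised CPM of the 10 genes (linear axes from 0), with 1 point per library, 5 groups of 3, a line at the mean and a bar of ±1 SD. Tgfb3 and Ltbp2 reach their highest levels after irradiation, and Tgfb1 is lowest in both p8 groups.

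Tgfb3 encodes the isoform that predominated in these cells and is known for roles in lung and palate development. Its levels were 173, 185 and 187 CPM in Atm+/+ p2, 262, 232 and 284 CPM in Atm-/- p2, and 341, 297 and 363 CPM in Atm+/+ p8. Atm-/- p8 cells had 139, 219 and 154 CPM, and irradiated cells 641, 532 and 499 CPM. Every irradiated library lay above every other library, and the ranges of the genotypes did not overlap at either passage, with Atm-/- the higher at p2 and the lower at p8. Tgfb3 rose with passage in Atm+/+ cells (log2 0.88, SE 0.17, edgeR adjusted p = 0.00258) and fell with passage in Atm-/- cells (log2 -0.60, SE 0.17, edgeR adjusted p = 0.033). The passage effects differed by -1.48 (SE 0.24, edgeR adjusted p = 0.0115), Atm-/- minus Atm+/+. At p8 the gene was lower in Atm-/- cells by -0.97 (SE 0.17, edgeR adjusted p = 0.00488). The p2 difference of 0.51 (SE 0.17, edgeR adjusted p = 0.198) was not called. After irradiation Tgfb3 was 3.07-fold higher than in unirradiated p2 cells (log2 1.62, SE 0.17, edgeR adjusted p = 6.57e-05) and 1.67-fold higher than at p8 (log2 0.74, SE 0.17, edgeR adjusted p = 0.0167). The fall in Atm-/- cells lost its call without any 1 of the 3 Atm-/- p2 libraries (adjusted p up to 0.153), Atm-/- p8 replicate 1 or 3, Atm+/+ p8 replicate 1, or irradiated replicate 2 or 3, and when only the 2 groups compared were fitted (0.189). With a replicate block the fall had an edgeR adjusted p of 0.0729 and was not called, and in the 13 libraries it had 0.0402. The rise over p8 lost its call without Atm+/+ p8 replicate 1 or 2 or irradiated replicate 1 (edgeR adjusted p up to 0.101) and with a replicate block (0.0587).

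Tgfb1, the isoform most widely linked to fibrosis, moved against Tgfb3 with passage in Atm+/+ cells and the same way in Atm-/- cells. Levels were 79.5, 82.4 and 77.1 CPM in Atm+/+ and 69.1, 72.6 and 90.3 CPM in Atm-/- cells at p2. At p8 they were 55.9, 42.5 and 52.0 CPM in Atm+/+ and 45.4, 46.9 and 40.5 CPM in Atm-/- cells, and after irradiation 81.4, 69.6 and 74.7 CPM. All 6 p8 libraries lay below all 9 others. Tgfb1 fell with passage in Atm+/+ cells (log2 -0.67, SE 0.14, edgeR adjusted p = 0.00379) and in Atm-/- cells (log2 -0.80, SE 0.14, edgeR adjusted p = 0.00152), and the difference of these effects, -0.14 with a 95% interval of -0.56 to 0.28, was not called. Irradiated cells were 1.5-fold above Atm+/+ p8 cells (log2 0.59, SE 0.14, edgeR adjusted p = 0.019). Against unirradiated p2 cells the difference was -0.08 with a 95% interval of -0.38 to 0.21. On the TPM scale the fall in Atm+/+ cells was not called (-0.44, limma adjusted p = 0.187), nor was the difference between irradiated and p8 cells (0.78, limma adjusted p = 0.077). The latter also lost its call without Atm+/+ p8 replicate 2 or 3 or irradiated replicate 1 or 3 (edgeR adjusted p up to 0.119) and with a replicate block (0.0562). Macrophage and endothelial markers moved the same way where Tgfb1 was called. With passage 10 of 10 macrophage and 8 of 8 endothelial markers fell in each genotype, and 9 and 8 were higher in irradiated than in p8 cells. They did not move with Tgfb1 in every contrast. Against unirradiated p2 cells, 2 of 10 macrophage and 5 of 8 endothelial markers were lower after irradiation. At p2 macrophage markers summed to 1940 to 3050 CPM in Atm+/+ and 872 to 1390 CPM in Atm-/- cells, with Tgfb1 at a log2 difference of -0.04. Of the macrophage markers, Ptprc, Adgre1, Mrc1 and Tyrobp were under 1 CPM in Atm+/+ p8 cells, where the 10 summed to 63.9 to 96.8 CPM and Tgfb1 was at 50.1 ± 6.91 CPM (SD, n = 3). Their part in the Tgfb1 result was not tested.

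Tgfb2, the least abundant isoform, is known from heart and skeletal development. It was at 10.4, 16.8 and 3.14 CPM in Atm+/+ p2, 16.1, 17.2 and 20.8 in Atm-/- p2, and 8.55, 8.65 and 9.85 in Atm+/+ p8. Atm-/- p8 cells had 6.52, 7.29 and 8.86 CPM and irradiated cells 16.8, 17.5 and 14.2. The Atm+/+ p2 range covered all of the Atm+/+ p8 values, and its lowest value came from the library that stood apart. In edgeR on all 15 libraries no difference was called. Between passages of Atm-/- cells, whose ranges did not overlap, the log2 difference was -1.26 (SE 0.40, edgeR adjusted p = 0.0565), and it was called in DESeq2, in limma on log2(TPM + 1) and in edgeR with only these groups fitted. In the 13 libraries Tgfb2 fell with passage in both genotypes, by -0.57 (edgeR adjusted p = 0.0241) in Atm+/+ and by -1.36 (edgeR adjusted p = 0.000169) in Atm-/- cells, and was 0.86 higher after irradiation than at p8 (edgeR adjusted p = 0.00178).

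Inhba, the activin A subunit, was scarce and showed the largest fold changes of the set. Its levels were 2.27, 2.85 and 0.967 CPM in Atm+/+ p2 (20 or more counts per library) and 4.04, 3.48 and 4.23 CPM in Atm-/- p2. They were 6.49, 5.90 and 8.37 CPM in Atm+/+ p8, 5.76, 6.58 and 8.42 CPM in Atm-/- p8, and 10.1, 7.74 and 9.64 CPM after irradiation. No p8 or irradiated library reached down to any p2 library of either genotype. Inhba rose 3.37-fold with passage in Atm+/+ cells (log2 1.75, SE 0.34, edgeR adjusted p = 0.00227) and 4.47-fold after irradiation (log2 2.16, SE 0.34, edgeR adjusted p = 0.000859). The 13 libraries gave 2.75-fold and 3.69-fold. In Atm-/- cells the passage difference was 0.81 (SE 0.33, edgeR adjusted p = 0.124) and called in the 13 libraries (0.68, edgeR adjusted p = 0.0178). At p8 the genotypes differed by -0.0064 with a 95% interval of -0.71 to 0.69, and at p2 by 0.93 (SE 0.33, edgeR adjusted p = 0.229).

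The latency proteins Ltbp1 and Ltbp2 share the family name and not the task: Ltbp1 binds latent TGF-beta covalently, whereas Ltbp2 does not and is known as a microfibril protein. Ltbp1 was at 280.0, 261 and 378 CPM in Atm+/+ p2, 295, 278 and 295 in Atm-/- p2, and 462, 486 and 483 in Atm+/+ p8. Atm-/- p8 cells had 214, 290.3 and 348 CPM, and irradiated cells 407, 407 and 384. The 3 Atm+/+ p8 libraries were the highest of all 15. Ltbp1 rose with passage in Atm+/+ cells (log2 0.64, SE 0.17, edgeR adjusted p = 0.0185) and was lower in Atm-/- than in Atm+/+ cells at p8 (log2 -0.75, SE 0.17, edgeR adjusted p = 0.0185). Within Atm-/- cells the passage difference was -0.03 with a 95% interval of -0.40 to 0.35. The genotype call was lost without any 1 of the Atm+/+ p8 libraries (edgeR adjusted p from 0.0528 to 0.0679), and the passage call without Atm+/+ p2 replicate 1 or Atm+/+ p8 replicate 2 or 3 (up to 0.0671) or with only the groups compared (0.0597). In the 13 libraries both differences were larger, at 0.84 and -0.90, and the irradiated cells were also higher than unirradiated ones (0.61, edgeR adjusted p = 0.00103).

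Ltbp2 was at 372, 311 and 434 CPM in Atm+/+ p2, 528, 436 and 492 in Atm-/- p2, and 693, 656 and 703 in Atm+/+ p8. Atm-/- p8 cells had 351, 490.5 and 362 CPM, and irradiated cells 1024, 904 and 941. As for Tgfb3, the irradiated libraries were the highest of all and the genotypes did not overlap at either passage. At p2 they nearly met, at 434 CPM in Atm+/+ and 436 CPM in Atm-/- cells. The p2 difference of 0.38 (SE 0.16, edgeR adjusted p = 0.278) was not called. Ltbp2 rose with passage in Atm+/+ cells (log2 0.88, SE 0.16, edgeR adjusted p = 0.00161) and was 2.57-fold higher after irradiation (log2 1.36, SE 0.16, edgeR adjusted p = 0.000128). At p8 it was lower in Atm-/- cells (log2 -0.77, SE 0.16, edgeR adjusted p = 0.0106). The passage difference in Atm-/- cells was -0.27 (SE 0.16, edgeR adjusted p = 0.288), and the passage effects differed between genotypes by -1.15 (SE 0.23, edgeR adjusted p = 0.0209). That last call was lost without Atm+/+ p2 replicate 1, Atm-/- p2 replicate 1 or 3, or Atm+/+ p8 replicate 1 or 3 (edgeR adjusted p up to 0.0701) and with only the groups compared (0.0654). A replicate block ended it too (edgeR adjusted p = 0.0621). Within a library Ltbp2 exceeded Ltbp1 per length by 1.13- to 1.31-fold in Atm+/+ p2 and by 2.19- to 2.48-fold after irradiation.

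The type I receptor Tgfbr1 and the type II receptor Tgfbr2, both kinases, had 1 call between them. Tgfbr1 was at 15.8, 22.1 and 9.53 CPM in Atm+/+ p2, 20.7, 26.4 and 26.9 in Atm-/- p2, and 15.5, 18.4 and 18.8 in Atm+/+ p8. It was at 6.93, 11.6 and 16.6 CPM in Atm-/- p8 and at 22.9, 32.5 and 24.2 CPM after irradiation. The 2 passages of Atm-/- cells did not overlap, and Tgfbr1 fell between them (log2 -1.09, SE 0.32, edgeR adjusted p = 0.0378). This call was lost without any 1 library other than Atm+/+ p2 replicate 2 or 3 or Atm-/- p8 replicate 3 (edgeR adjusted p up to 0.132) and with only the groups compared (0.140), and was stronger in the 13 libraries (-1.39, edgeR adjusted p = 0.000692), where Tgfbr1 was also lower in Atm-/- than in Atm+/+ cells at p8 (-0.91, edgeR adjusted p = 0.0135). Tgfbr2 ranged from 72.6 to 309.9 CPM within Atm+/+ p2 (179, 309.9 and 72.6), a spread wider than any difference between groups. It was at 168, 204 and 227 CPM in Atm-/- p2, 147, 136 and 171 in Atm+/+ p8, 105, 122 and 78.8 in Atm-/- p8, and 308, 346 and 264 after irradiation. The irradiated libraries lay above both p8 groups, with a log2 difference of 1.01 from Atm+/+ p8 (SE 0.36, edgeR adjusted p = 0.138; 1.04 and 0.00124 in the 13 libraries).

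Smad7 and Skil are classical feedback inhibitors: Smad7 blocks the activated type I receptor, and the Skil product SnoN represses SMAD-bound genes. Smad7 was at 19.7, 26.5 and 10.3 CPM in Atm+/+ p2, 31.4, 32.4 and 36.1 in Atm-/- p2, and 50.4, 47.5 and 56.5 in Atm+/+ p8. Atm-/- p8 cells had 50.7, 44.6 and 13.3 CPM, and irradiated cells 59.4, 51.6 and 52.3. The value of 13.3 came from the Atm-/- p8 library that stood apart, and the other 2 libraries of that group lay above all Atm-/- p2 values. Smad7 rose 2.72-fold with passage in Atm+/+ cells (log2 1.45, SE 0.39, edgeR adjusted p = 0.0179) and 2.88-fold after irradiation (log2 1.53, SE 0.39, edgeR adjusted p = 0.0126). In Atm-/- cells the passage difference was 0.13 (SE 0.38, edgeR adjusted p = 0.856) in 15 libraries and 0.54 (edgeR adjusted p = 0.00569) in the 13. The Atm+/+ passage call was lost without Atm+/+ p2 replicate 1 or 3 or Atm+/+ p8 replicate 3 (edgeR adjusted p up to 0.0628) and in limma on log2(TPM + 0.1) (0.0558). In the 13 libraries it was 1.18 with an edgeR adjusted p of 1.34e-05.

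Skil was at 15.0, 15.0 and 10.5 CPM in Atm+/+ p2, 15.3, 17.2 and 19.9 in Atm-/- p2, and 23.2, 18.1 and 20.9 in Atm+/+ p8. Atm-/- p8 cells had 22.6, 16.2 and 15.3 CPM and overlapped every other unirradiated group but Atm+/+ p2. Irradiated cells had 21.9, 28.4 and 22.1 CPM. Skil rose after irradiation (log2 0.84, SE 0.20, edgeR adjusted p = 0.0101) and with passage in Atm+/+ cells (log2 0.61, SE 0.20, edgeR adjusted p = 0.0446), the latter lost without Atm+/+ p2 replicate 1 or 3, Atm-/- p2 replicate 2, any 1 of the Atm+/+ p8 libraries, or irradiated replicate 1 or 3 (edgeR adjusted p up to 0.146). It was also lost with no filter on low counts (0.0847), with only the groups compared (0.0820), with a replicate block (0.0849) and in limma (0.0856 and 0.0971).

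Loss of Atm at p2 was compared first. Of the 10 genes, 0 were called in either direction, against 0.628% of all genes higher and 0.341% lower in Atm-/- cells. Unadjusted, 3 had p under 0.05 in edgeR (Tgfb3, Inhba and Ltbp2, all higher in Atm-/- cells) where 16.1% of all genes did. DESeq2 called 0 of the 10, where it called 918 of 18167 genes. Limma called 0 as well, where it called 237 of 17295 genes with log2(TPM + 1) and 128 with log2(TPM + 0.1). The median log2 difference of the 10 was 0.45 against 0.04 over all genes. In the 13 libraries Ltbp2 (0.52, edgeR adjusted p = 0.0484) and Smad7 (0.54, edgeR adjusted p = 0.0289) were higher in Atm-/- cells, 2 of 10 genes where 5.35% of all genes were called. Among 20 textbook TGF-beta target genes of fibroblasts, 4 rose and 0 fell. Among them were Ccn2, a matricellular growth factor (log2 1.41, SE 0.17), and the smooth muscle genes Cnn1 (1.37, SE 0.26) and Acta2 (0.77, SE 0.15). Of 13 tested genes of latency and activation, Thbs1, an activator of latent TGF-beta, rose (1.47, SE 0.29) and Ltbp4 fell (-1.13, SE 0.20). Acta2 and Cnn1 are also among the 8 smooth muscle and pericyte markers, of which 3 rose, and whose part in the result was not tested. The other lists had 0 calls in edgeR: 9 further ligands and antagonists (2 at unadjusted p under 0.05, 1 in DESeq2), 8 further receptors (1 and 0) and 16 SMADs and SMAD regulators (4 and 1).

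At p8 the loss of Atm went with less Tgfb3, Ltbp1 and Ltbp2. These 3 of the 10 were lower in Atm-/- cells, where 4.29% of all genes were lower and 5.03% higher, and none was higher. The median of the 10 was -0.53, against -0.08 over all genes. Without the pair that stood apart 4 were called, all lower, with Tgfbr1 added, where 25.0% of all genes were called. When only the 2 groups compared were fitted, 18 of 16223 genes were called and none of the 3 was among them (edgeR adjusted p of 0.114, 0.161 and 0.123). Their log2 differences in that fit were -0.95, -0.73 and -0.76. Of 13 latency and activation genes 6 fell and 0 rose, among them Fbn1, the fibrillin that anchors the latent complex (log2 -0.92, SE 0.13), Thbs1 (-1.60, SE 0.29), Lrrc32, which holds latent TGF-beta at the cell surface (-0.92, SE 0.17), and Ltbp4 (-1.01, SE 0.20). Of 20 target genes 13 were lower and 2 higher. The fibrillar collagen genes Col1a2 (-1.93, SE 0.17), Col1a1 (-2.09, SE 0.22) and Col3a1 (-2.71, SE 0.42) and Itga11, an integrin subunit that binds collagen (-2.92, SE 0.31) had the lowest p. The 2 that were higher, named after their values were seen, were the cell cycle inhibitor Cdkn2b (1.26, SE 0.20) and the oxidase Nox4 (0.92, SE 0.21). Among 9 further ligands and antagonists the activin antagonist Fst (-1.49, SE 0.34), Fstl1 (-0.48, SE 0.13) and the proteoglycan Dcn (-1.54, SE 0.43) were lower. Of 16 SMAD genes Smad6 was higher (0.55, SE 0.16), and of 8 further receptors 0 were called in edgeR (4 at unadjusted p under 0.05, 3 in DESeq2). Of the 8 defining fibroblast markers 7 were lower (Dcn and the 3 collagen genes above among them) and 1, Vim, higher in the same comparison. Smooth muscle and pericyte markers had 5 of 8 lower and 1 higher, macrophage markers 4 of 10 lower, endothelial markers 4 of 8 higher, and mesothelial markers 3 of 4 tested higher. The part of these markers in the member results was not tested.

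Passage in Atm+/+ cells moved most of the set. Tgfb3, Inhba, Ltbp1, Ltbp2, Smad7 and Skil rose, 6 of 10 where 9.80% of all genes rose, and Tgfb1 fell, 1 of 10 where 13.5% of all genes fell. The median of the 10 was 0.63 against 0.00 over all genes. Over the 13 libraries 9 of 10 were called, where 40.1% of all genes were: the same 7, with Tgfb2 (-0.57) and Tgfbr2 (-0.67, edgeR adjusted p = 0.0196) added as lower. Of 20 target genes 11 rose and 3 fell, among them Ccn2 (log2 3.06, SE 0.18), the collagen cross-linking enzyme gene Lox (1.80, SE 0.15) and Itga11 (2.73, SE 0.30). Among the latency genes 3 rose and 3 fell. Thbs1 went from 471 ± 176 to 8691 ± 1170 CPM (SD, n = 3; log2 4.2, SE 0.32), and the elastic fibre gene Fbln5 rose as well (2.39, SE 0.31). Ltbp4 (-2.47, SE 0.21) and Nrros, which holds latent TGF-beta on macrophages and microglia (-5.78, SE 0.49), fell. Nrros had 13 to 29 counts per library in Atm+/+ p8 cells. Of the further ligands and antagonists Fst (1.94, SE 0.34) and Dcn (1.33, SE 0.43) rose and the inhibin subunits Inha (-0.88, SE 0.22) and Inhbb (-1.48, SE 0.30) fell. The activin receptors Acvr1 (1.39, SE 0.40) and Acvr2a (0.91, SE 0.29) rose, and the decoy receptor Bambi fell (-1.09, SE 0.35). Of the SMAD list 4 rose and 1 fell, with Pmepa1 lower (-0.77, SE 0.16) and Tgif1 (0.94, SE 0.28), Nedd4l (0.63, SE 0.19) and Smurf2 (1.20, SE 0.39) higher. In the same comparison 10 of 10 macrophage and 8 of 8 endothelial markers fell, and of 6 tested epithelial markers 5 fell and 1 rose. Smooth muscle and pericyte markers had 3 of 8 higher and 4 lower. Fibroblast markers had 3 of 8 higher, and mesothelial markers 2 of 4 tested. The part of these markers in the member results was not tested.

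**Figure D3:**
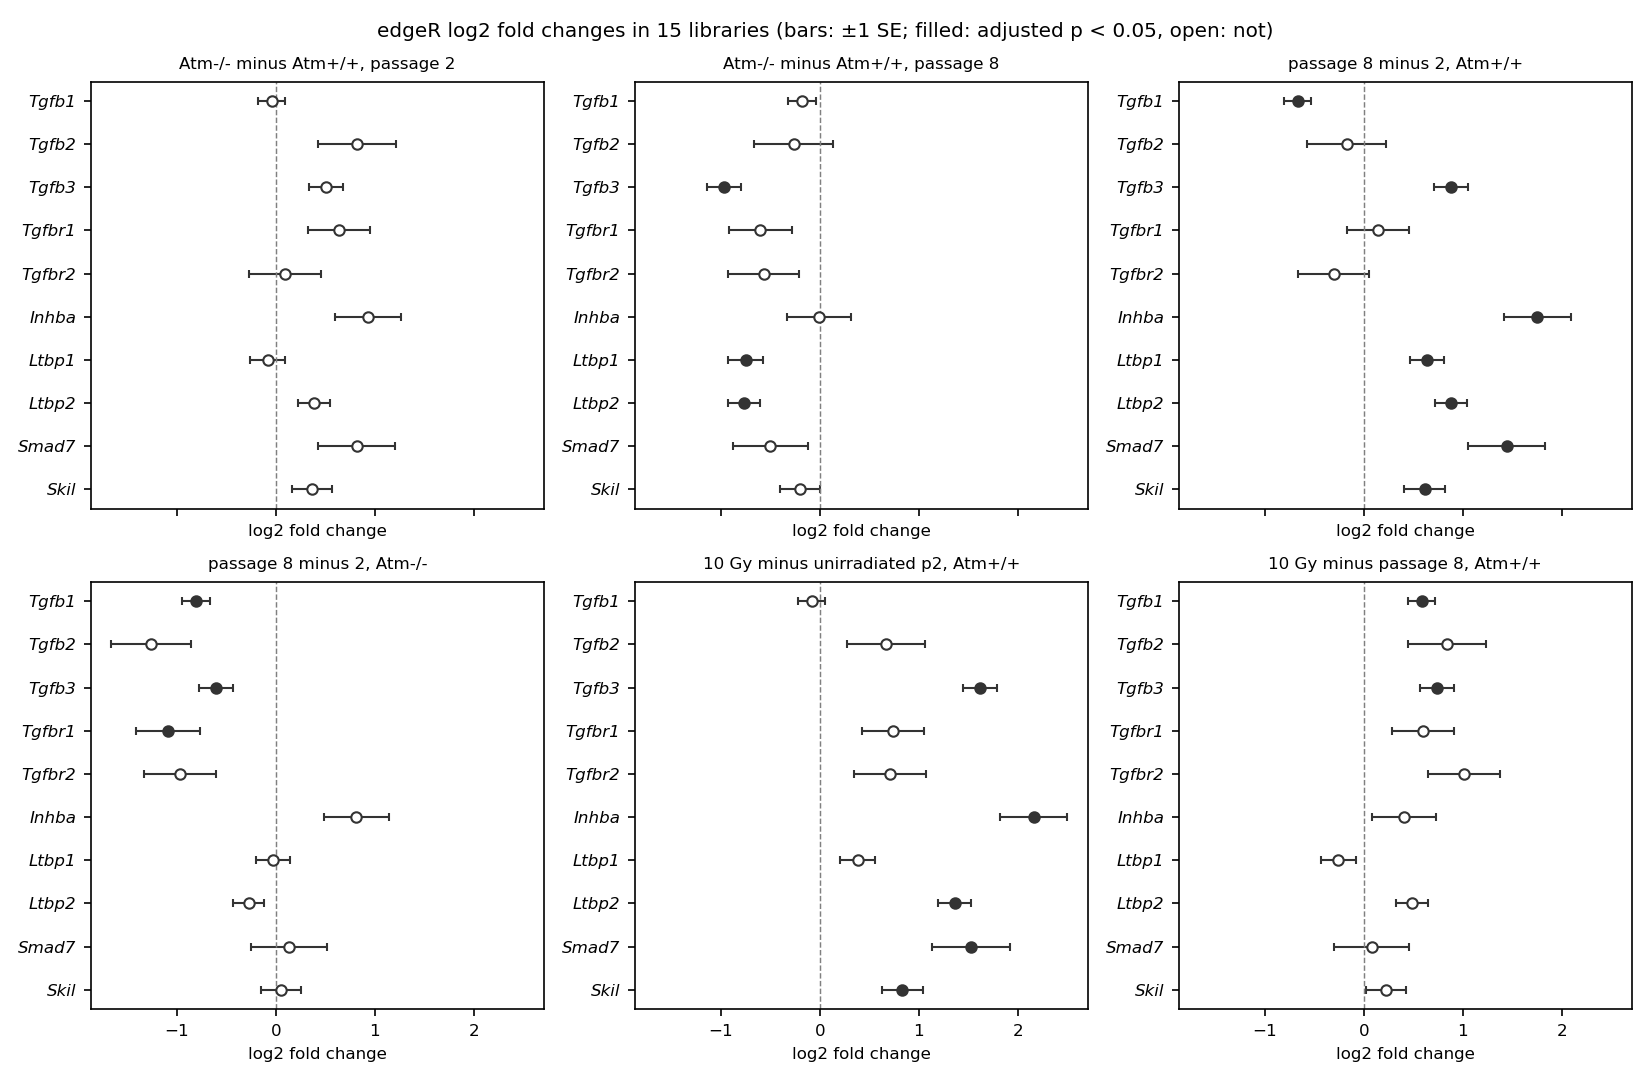
edgeR log2 fold changes of the 10 genes in 6 comparisons, with bars of ±1 SE and filled points for adjusted p under 0.05. The point of Tgfb3 lies at 0.88 for passage in Atm+/+ cells, at -0.60 for passage in Atm-/- cells and at 1.62 after irradiation.

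Passage in Atm-/- cells gave 0 higher and 3 lower members, against 4.76% of all genes higher and 8.25% lower. Tgfb1, Tgfb3 and Tgfbr1 fell, with a median of -0.44 over the 10 and -0.08 over all genes. At an unadjusted p under 0.05 there were 6, with Inhba the only one higher, where 28% of all genes passed. DESeq2 called 6, where it called 3636 of 18167 genes. The 13 libraries called 7 of 10, where 27.2% of all genes were called, 5 of them lower (Tgfb2 and Tgfbr2 added) and 2 higher (Inhba and Smad7). Of 20 target genes 4 rose and 7 fell. Cdkn2b (1.90, SE 0.20) and Lox (1.35, SE 0.15) were the rising ones with the lowest p, and the matricellular gene Postn (-3.19, SE 0.37) and Col1a1 (-1.88, SE 0.22) the falling ones. Of the latency genes 2 rose and 4 fell, with Fbln5 higher (1.82, SE 0.30) and Ltbp4 (-2.35, SE 0.21), Nrros (-5.10, SE 0.50) and Fbn1 (-0.57, SE 0.13) lower. Nrros had 0 to 22 counts per library at p8. Fstl1 (-0.68, SE 0.13) and Bambi (-2.05, SE 0.37) fell, Acvrl1 rose (0.65, SE 0.17), and 0 of 16 SMAD genes were called in edgeR (2 at unadjusted p under 0.05, 1 in DESeq2). In the same comparison 5 of 8 fibroblast, 4 of 8 smooth muscle and pericyte, 10 of 10 macrophage and 8 of 8 endothelial markers fell, and 3 of 4 tested mesothelial markers rose. Their part in the member results was not tested.

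**Figure D4:**
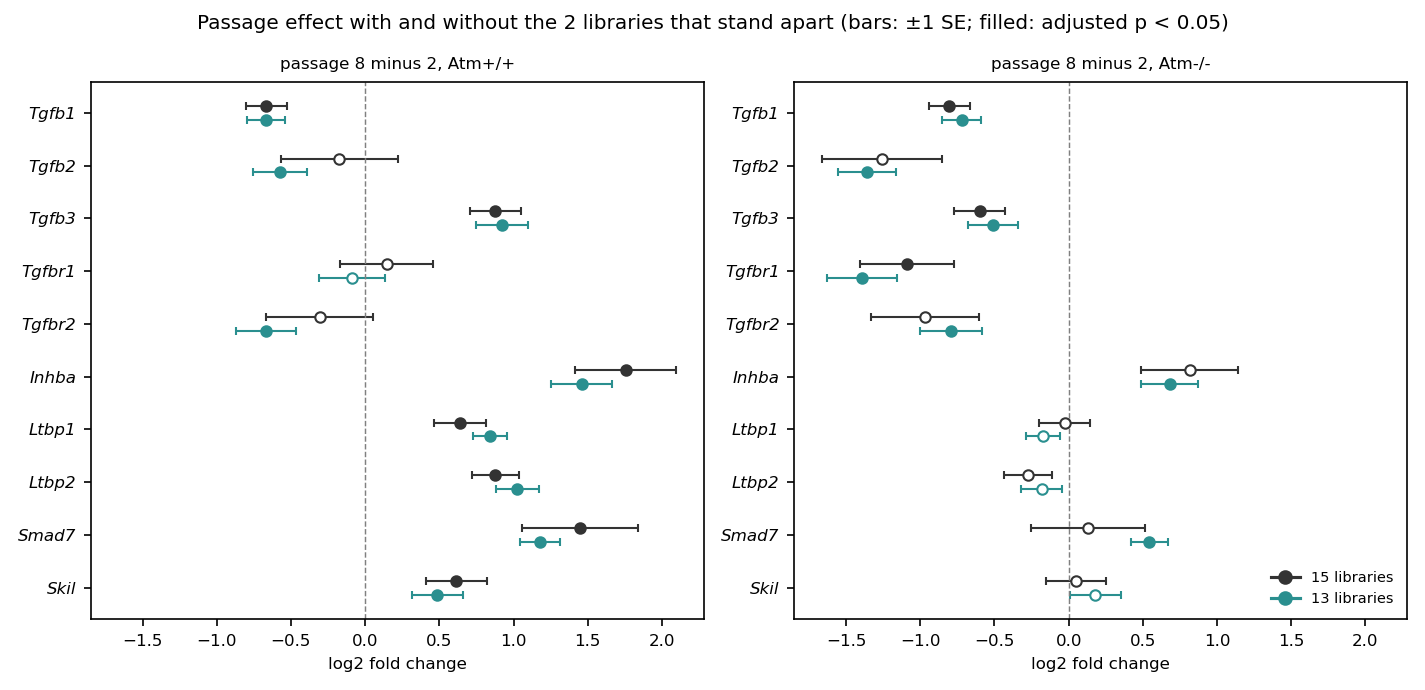
Passage effects (log2, ±1 SE, filled where the edgeR adjusted p was under 0.05) in 15 libraries and in the 13 left without the pair that stood apart. Tgfb2 and Tgfbr2 are called only in the 13 in both panels, and Smad7 in Atm-/- cells moves from 0.13 to 0.54.

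The passage effect was then compared between the genotypes. For Tgfb3 and Ltbp2 it was lower in Atm-/- than in Atm+/+ cells, 2 of 10 where 1.97% of all genes were lower and 2.46% higher. For all 10 genes the estimate of the difference was below 0, with a median of -1.01 against -0.14 over all genes, and the 10 estimates rest on the same 4 groups. The median of all genes was thus below 0 too, and Tgfb1, at -0.14, was no lower than that median. Over the 13 libraries 5 of 10 were called, all lower, where 13.8% of all genes were called: Tgfb3 (-1.43), Ltbp2 (-1.21), Tgfbr1 (-1.30), Ltbp1 (-1.02) and Smad7 (-0.63). Without Atm+/+ p2 replicate 2, 6 of 10 were called, where 4600 of 18651 genes were. Of 20 target genes 11 were lower and 1 higher in this contrast, among the lower ones Ccn2 (-1.87, SE 0.23), Col1a2 (-1.78, SE 0.24) and Col1a1 (-2.28, SE 0.30). Ccn2 rose with passage in both genotypes. Thbs1 (-3.07, SE 0.41), Lrrc32 (-1.33, SE 0.24) and Fbn1 (-0.83, SE 0.19) were lower, and so was Fst (-2.53, SE 0.48). The receptor and SMAD lists had 0 calls in edgeR (2 and 2 at unadjusted p under 0.05, 2 and 1 in DESeq2). Of the fibroblast markers 5 of 8 were lower in this contrast too, and their part was not tested.

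**Figure D5:**
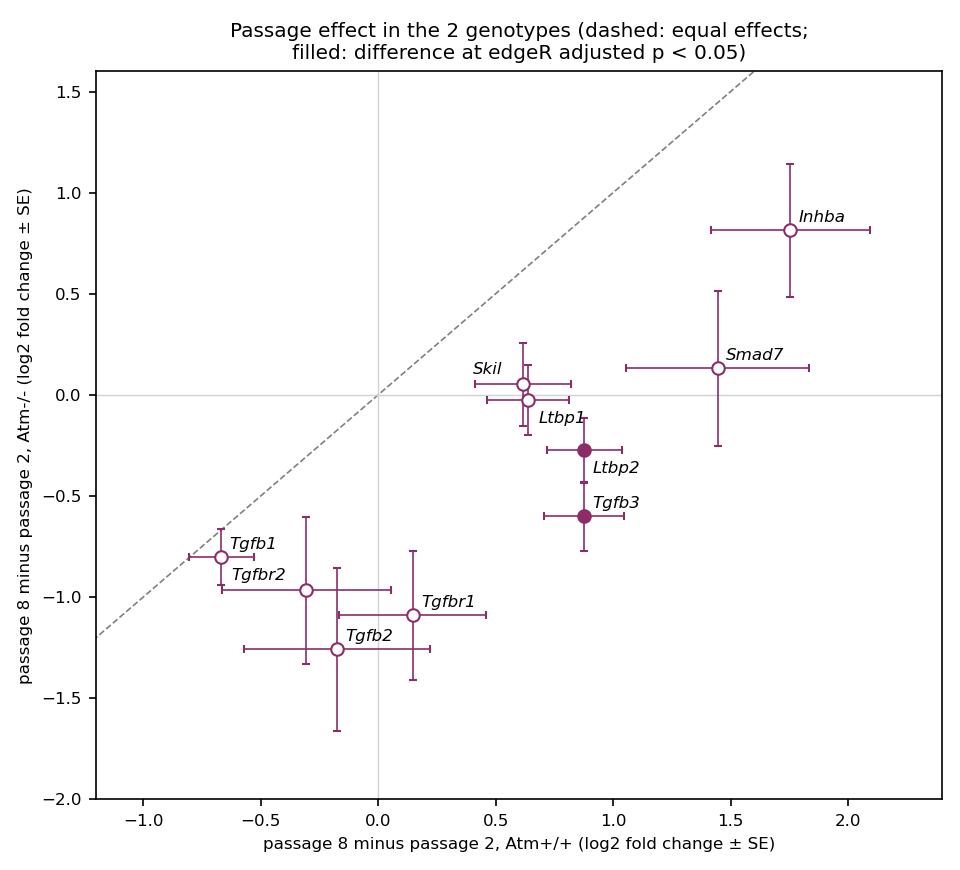
Passage effect of each gene in Atm+/+ (horizontal) and Atm-/- cells (vertical), log2 with bars of ±1 SE. All 10 points lie under the dashed line of equal effects, and the filled points, Tgfb3 and Ltbp2, are those whose difference was called (-1.48 and -1.15).

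Irradiation was compared with unirradiated Atm+/+ cells of the same labelled passage. Their labels hold no matching 10 days of culture, so this comparison joins dose and time. Tgfb3, Inhba, Ltbp2, Smad7 and Skil rose, 5 of 10 where 11% of all genes rose, and 0 fell where 16.5% of all genes fell. At an unadjusted p under 0.05 there were 7 of 10, all higher, where 41.1% of all genes passed. DESeq2 called 5, where it called 6719 of 18167 genes. Limma called 7 with log2(TPM + 1), where it called 5654 of 17295 genes, 4062 of them higher. With log2(TPM + 0.1) it called 7, where it called 4567 genes, 3233 of them higher. The median of the 10 was 0.79 against -0.01 over all genes. Each of the 5 calls held in all 15 fits that left out 1 library. The 13 libraries called 6, with Ltbp1 added, where 46.3% of all genes were called. Of 20 target genes 9 rose and 2 fell, among them Ccn2, from 324 ± 42.7 to 2518 ± 178 CPM (SD, n = 3; log2 2.96, SE 0.17), and the contractile genes Tagln (1.78, SE 0.16) and Acta2 (1.70, SE 0.16). Among the latency genes 4 rose and 4 fell, with Thbs1 (3.57, SE 0.31), Fbln5 (1.90, SE 0.31) and Lrrc32 (1.06, SE 0.17) higher and Ltbp4 lower (-2.71, SE 0.21). The further ligands and antagonists had 3 higher and 0 lower: Fst (1.79, SE 0.34), the activin antagonist Fstl3 and, at low counts, the muscle growth inhibitor Mstn. Fstl3 was at 26.7 to 33.7 CPM after irradiation and at 0 to 6.52 CPM before, and Mstn at 1.31 to 2.03 and 0 to 0.29 CPM. Acvr1 (1.57, SE 0.40) and Acvr2a (1.19, SE 0.29) rose, and the co-receptor Tgfbr3 fell (-1.05, SE 0.17). Of the SMAD list 2 rose, the ubiquitin ligase gene Smurf1 (0.71, SE 0.21) and Ldlrad4 (1.06, SE 0.34). Of the smooth muscle and pericyte markers 4 of 8 rose and 1 fell. The markers that fell were 2 of 10 for macrophages, 5 of 8 for endothelium and 1 of 8 for fibroblasts. Of the epithelial markers, 6 of 7 of them under 1 CPM after irradiation, 5 of 6 tested fell. The part of these markers was not tested.

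Irradiated cells were last compared with Atm+/+ p8 cells. Tgfb1 and Tgfb3 were higher after irradiation, 2 of 10 where 4.30% of all genes were higher, and 0 were lower where 2.59% of all genes were lower. At an unadjusted p under 0.05 there were 4 of 10, all higher, where 17.5% of all genes passed. DESeq2 called 4, where it called 2005 of 18167 genes. Limma called 1, where it called 1026 of 17295 genes with log2(TPM + 1) and 950 with log2(TPM + 0.1). The median of the 10 was 0.53 against -0.01 over all genes. The 13 libraries gave 6 calls, all higher, where 25.5% of all genes were called: Tgfb1, Tgfb2, Tgfb3, Tgfbr1, Tgfbr2 and Ltbp2. Without Atm+/+ p8 replicate 2, or without irradiated replicate 1, 0 were called in 14 libraries, where 722 of 18688 and 757 of 18647 genes were. Nrros was higher (4.19, SE 0.46) and Ltbp3 lower (-0.69, SE 0.14) among the latency genes, Tgfbr3 lower among the receptors (-1.22, SE 0.17), and Postn (2.16, SE 0.35) and Nox4 (1.18, SE 0.21) higher and Col1a2 (-0.95, SE 0.17) and Lox (-0.59, SE 0.15) lower among the 20 targets. The further ligands and the SMAD list had 0 calls in edgeR (2 and 1 at unadjusted p under 0.05, 1 and 0 in DESeq2). In the same comparison 9 of 10 macrophage, 8 of 8 endothelial and 1 of 8 smooth muscle and pericyte markers were higher. Lower were 1 of 8 fibroblast, 1 of 6 tested epithelial and 1 of 4 tested mesothelial markers. The part of these markers in the results was not tested. Smad7, Inhba and Skil, called against p2 in both Atm+/+ series, differed here by 0.08 (95% interval -0.74 to 0.90), 0.41 (-0.29 to 1.10) and 0.22 (-0.22 to 0.66).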

How the data were processed

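The authors deposited raw counts per gene (whole numbers) and TPM per gene for 15 libraries of total RNA. Counting used featureCounts on mm10, with SAMtools 1.3.1, per the submitters' processing notes. The sources used here do not give the aligner, the annotation or whether strand was used. Gene IDs were paired with symbols from the reference table for 48058 of 48440 genes.

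Counts were tested in edgeR 4.0.16 (R 4.3.3) with TMM, filterByExpr, 1 mean per group over all 15 libraries, and robust quasi-likelihood tests with Benjamini-Hochberg adjustment at 0.05, in 7 contrasts. SE is the log2 fold change over the root of F, and 95% intervals use the t quantile of the fit. TPM served for levels per length and in limma 3.58.1. Alternatives were DESeq2 1.42.0, its size factors, other filters, only the groups compared, log2(TPM + 1) and log2(TPM + 0.1), each library left out, a replicate block, and a fit of 13 libraries added after the data were seen. The script was tested on simulated data. From each pathway list up to 4 called genes with the lowest p are named, except 1 target gene that is not reported here and is only part of the counts. The members and lists were chosen with earlier results of these data known. P-values set a difference against the spread between libraries of a group, which the main fit estimated over all 5 groups. Coordinates and sequence of 1 member, Smad7, are not reported here.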

Additional observations from a re-analysis of the deposited data

Results flagged for a closer look

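For 2 of the 10 genes the effect of passage differed between the genotypes by a test of the difference itself (edgeR, adjusted over all genes). For Tgfb3 the difference, Atm-/- minus Atm+/+, was a log2 value of -1.48 (SE 0.24, edgeR adjusted p = 0.0115), with a rise of 0.88 in Atm+/+ cells and a fall of -0.60 in Atm-/- cells. The difference was called in each of the 15 fits that left out 1 library. The fall in Atm-/- cells by itself lost its call in several of those fits (edgeR adjusted p up to 0.153). It was also lost with only the groups compared (0.189) and with a replicate block (0.0729). For Ltbp2 the difference was -1.15 (SE 0.23, edgeR adjusted p = 0.0209), with a rise of 0.88 in Atm+/+ cells and an uncalled -0.27 in Atm-/- cells. This call was lost in 5 of those 15 fits (edgeR adjusted p up to 0.0701), with only the groups compared (0.0654) and with a replicate block (0.0621). Summed fibroblast markers were also lowest in Atm-/- passage 8 cells, at 8910 to 12800 CPM, and their part in these differences was not tested.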

How the results depend on the processing

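Of 1680 values of the 10 genes under alternatives, 43 changed sign, 0 of them called in 15 libraries, 70 lost a call and 63 gained one. Counts of called members moved beyond 1.5 times as follows. Counts over all genes tested stand in brackets. With DESeq2, 6 members were called for passage in Atm-/- cells (3636 of 18167) and 4 for irradiated against passage 8 (2005 of 18167). With only the groups compared, 0 were called for genotype at passage 8 (18 of 16223), 8 for irradiated against passage 8 (6214 of 17056) and 1 for the difference of passage effects (120 of 17828). In limma 4 were called for passage in Atm+/+ cells with log2(TPM + 0.1) (2847 of 17295), and 1 for irradiated against passage 8 with either pseudocount (1026 and 950 of 17295). The 13 libraries gave 2 for genotype at passage 2 (989 of 18495), 7 for passage in Atm-/- cells (5026), 6 for irradiated against passage 8 (4710) and 5 for the difference (2556). The labels do not say whether replicate numbers pair the libraries. Deviations of libraries with the same number correlated from -0.51 to 0.44. With 3 libraries per group and 2 libraries that stood apart, these correlations cannot decide it. With a replicate block 0 were called for irradiated against passage 8 (923 of 18167 genes were) and 1 for the difference (144 of 18167). The replicate block ended the calls of Tgfb3 for passage in Atm-/- cells (-0.62, edgeR adjusted p = 0.0729), Skil for passage in Atm+/+ cells (0.0849), Tgfb1 and Tgfb3 for irradiated against passage 8 (0.0562 and 0.0587) and Ltbp2 for the difference (0.0621). Leaving out 1 library gave 0 to 2 for genotype at passage 2, 2 to 3 at passage 8, 4 to 7 and 1 to 6 for passage in Atm+/+ and Atm-/- cells, 5 to 8 and 0 to 5 for irradiated against passage 2 and passage 8, and 1 to 6 for the difference. In the same order, the called genes of all 18544 to 18688 tested numbered 61 to 1787, 588 to 3390, 2186 to 7500, 1476 to 3544, 2677 to 8275, 722 to 2341 and 79 to 4600. The cause was not tested. Uncalled values that changed sign were these. For genotype at passage 2, Tgfb1 was 0.20 and 0.20 and Ltbp1 0.19 and 0.19 in limma, and the 13 libraries gave 0.11 for Ltbp1 and -0.27 for Tgfbr2; leaving out 1 library gave -0.16 to 0.047 for Tgfb1, -0.27 to 0.68 for Tgfbr2 and -0.17 to 0.12 for Ltbp1. For genotype at passage 8, Inhba was 0.0022 with DESeq2 size factors, 0.038 with the strict filter, 0.012 with only the groups compared and -0.15 to 0.15 leaving out 1 library. For passage in Atm+/+ cells Tgfb2 was 0.14 and 0.32 in limma, 0.017 with the block and -0.56 to 0.44 leaving out 1 library, Tgfbr2 was 0.13 and 0.14 in limma and -0.66 to 0.31, and Tgfbr1 was -0.089 in the 13 libraries and -0.079 to 0.51. For passage in Atm-/- cells Ltbp1 was 0.011 with the strict filter and -0.18 to 0.16 leaving out 1 library, Smad7 was -0.37 and -0.44 in limma, -0.052 with the block and -0.16 to 0.54, and Skil was -0.25 and -0.31 in limma and -0.13 to 0.18. For irradiated against passage 2 Tgfb1 was 0.34 and 0.34 in limma, and -0.079 to 0.033 leaving out 1 library. On the log2(TPM + 1) scale the median of all genes was 0.216 and -0.289 for genotype at passages 2 and 8, 0.188 and -0.319 for passage in Atm+/+ and Atm-/- cells, 0.321 and 0.139 for irradiated against passages 2 and 8, and -0.505 for the difference. Depth limits Inhba most, with as few as 20 counts.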

Other observations

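The gene whose TMM-normalised log2 level followed Tgfb3 most closely over the 15 libraries, among 9935 genes, was Loxl2, a collagen cross-linking enzyme gene (Pearson r = 0.968, and 0.973 in 13 libraries), followed by Chst11 (0.965 and 0.980). For Ltbp2 these were the fibronectin receptor gene Itga5 (0.974 and 0.972) and the contractile gene Tagln (0.970 and 0.981). For Tgfb1 they were Snrk (0.953 and 0.939) and Nrros (0.953 and 0.955), the latter also following the macrophage markers in these groups. Among the members themselves, Tgfb3 and Ltbp2 were at r = 0.966 (0.964 in 13 libraries), and Inhba and Smad7 at 0.719 in 15 and 0.961 in 13 libraries. These are descriptions over 15 libraries that share 5 groups.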
